A study of Homo sapiens with 2 samples.

Results

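Splicing factor genes were followed in 2 cultures of Cal-27, an established oral cancer line derived from squamous carcinoma of the tongue. The rule that chose the genes uses gene names and no measured value, although it was chosen with earlier results of these data known. It takes every gene named SRSF with a number, every gene whose name begins with HNRNP, and ESRP1, ESRP2, RBFOX2, PTBP1, PTBP3, MBNL1, MBNL2, TRA2A, TRA2B, SON and SRRM2. They make 49 of the 20263 genes in each deposited table, with 12 SR protein genes, 26 HNRNP genes and the 11 named singly. The control culture was stably transduced with a scrambled shRNA and the other with the HIPK2 shRNA construct GV-248-HIPK2-sh, so both carry a vector. Both were grown in regular medium. The labels do not say whether each culture was a clone or a pool, or how many shRNAs against HIPK2 were tried.

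There was 1 library per group, the control with 28064923 counts and its counterpart with 26450251. No replicate spread exists, no test was possible, and every difference compares 2 libraries and not 2 conditions. HIPK2, the kinase that was targeted, had 110 and 218 counts (a CPM ratio of 2.01, 95% counting interval 1.59 to 2.55), while its deposited TPM went from 1.63 to 0.873, so that sample is called the HIPK2-shRNA-labelled library, after its label only. All 8 squamous epithelial markers checked were expressed (4636 and 3977 CPM summed, 2766 and 2554 of them from KRT5), although CDH1 went from 184 to 87.3 CPM and KRT14 from 11.6 to 1.63 CPM. Of 6 fibroblast markers, 3 were expressed, COL1A1 at 9.59 and 12.7 CPM, COL1A2 at 6.82 and 6.06, and PDGFRB at 1.60 and 2.70. DCN was at 0 in both libraries, and the 6 markers summed to 18.2 and 21.5 CPM. Of the leukocyte markers, PTPRC and CD3E were at 0 in both and CD68 held most of the 24.8 and 22.7 CPM. PECAM1 was at 0 in both, and CDH5 gave 55.2 and 27.3 of the 56.1 and 28.5 CPM of the 3 endothelial markers. The part of these markers in the results below was not tested. In a bulk library, fewer cells that express a gene and less RNA per cell cannot be told apart.

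Splicing removes introns from pre-mRNA, and the choice of exons depends on proteins that bind the transcript. SR proteins have an RNA-binding domain and a tail rich in arginine and serine, and they mostly promote the use of an exon when bound within it. The hnRNP proteins coat nascent transcripts and often act against the SR proteins at nearby sites, although both families can act either way depending on position. Many SR and hnRNP genes limit their own level by splicing their transcripts to forms that are degraded by nonsense-mediated decay. In epithelial cells, ESRP1 and ESRP2 hold the epithelial splicing programme, whereas RBFOX2, MBNL1, MBNL2 and the PTB proteins set exon choice in many tissues.

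CPM, the read counts scaled for depth, is used here for differences. TPM, as deposited, is also scaled for transcript length and is used to compare levels between genes. The log2 ratio sets (CPM + 1) of the HIPK2-shRNA-labelled library over that of the control, so positive values are higher in the former and low genes are understated. Genes that reached 1 CPM in either library count as expressed: 44 of the 49 members and 11813 of all genes. Plain ratios carry 95% exact (Clopper-Pearson) intervals, in brackets, that cover counting error only.

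The expressed members were abundant. Their median level was 40.8 TPM in the control and 41.4 TPM in the HIPK2-shRNA-labelled library, against 8.49 and 8.64 TPM over all expressed genes. The highest level was that of HNRNPL, a regulator that binds CA-rich RNA, at 557.9 and 513.3 TPM, the 240th and 244th highest of all expressed genes. HNRNPAB followed in the control with 488.9 TPM, then SRSF9 with 432.5, HNRNPC with 399.4 and HNRNPK with 337.5. In the HIPK2-shRNA-labelled library the next places were close together, with HNRNPAB at 362.7, HNRNPC at 362.1 and SRSF9 at 345.4 TPM. With 1 library per group the order of such neighbours could not be tested. All 49 genes together held 0.655% of the control counts and 0.614% of the others. Summed over each class, the SR genes went from 939.4 to 792.9 TPM and the HNRNP genes from 3386 to 2997 TPM. TRA2A, TRA2B, SON and SRRM2 together went from 212.0 to 254.2 TPM and the 7 tissue-regulated factors from 245.8 to 303.8 TPM. The first 2 classes were thus lower and the other 2 higher in summed TPM. Such sums follow the most abundant genes. SRRM2 went from 115.8 to 167.8 TPM while TRA2A and TRA2B were lower, and the median log2 ratio of these 4 genes in CPM was -0.013. Among the tissue-regulated factors, PTBP1 held most of the sum, at 174.4 and 208.2 TPM.

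**Figure D1:**
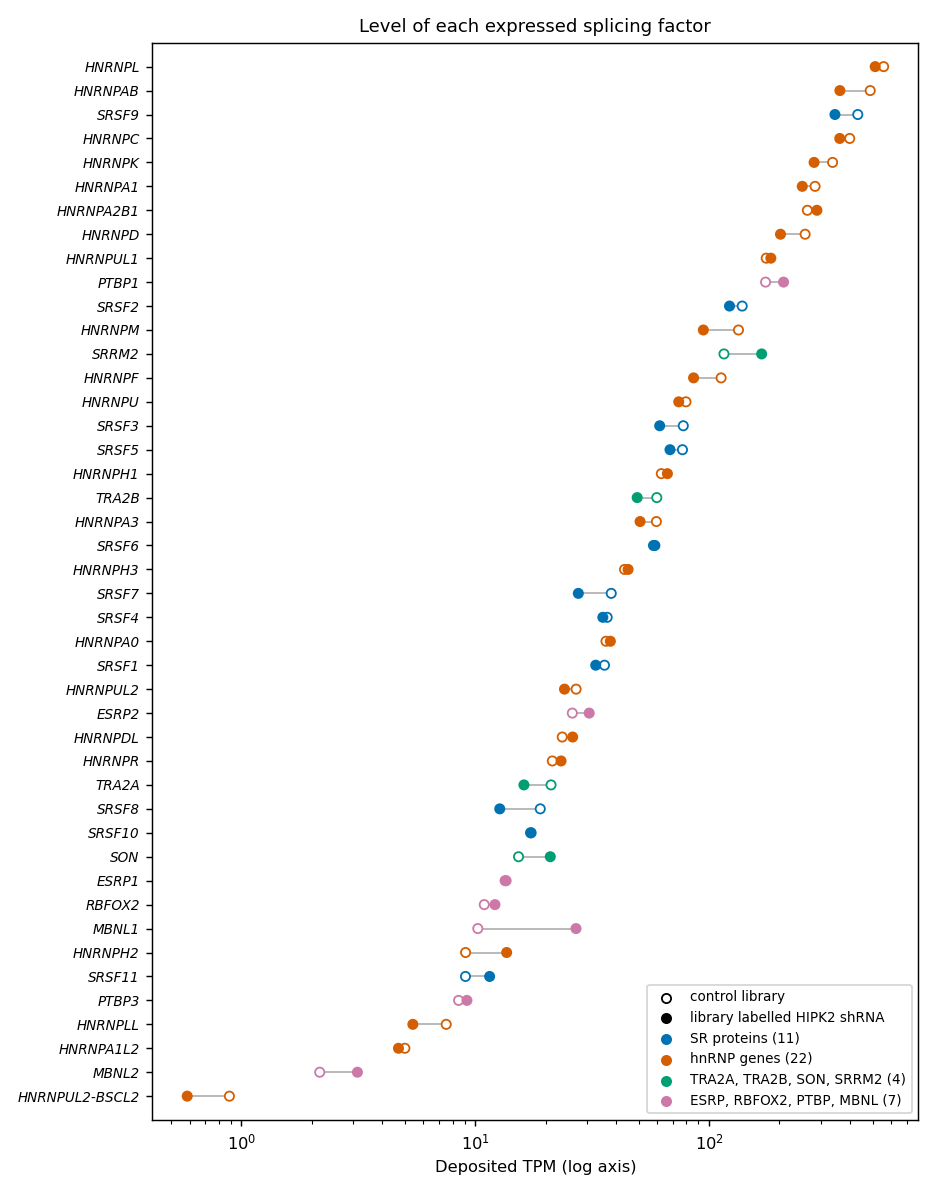
Deposited TPM of the 44 expressed splicing factors (log axis), ordered by the control; open circles are the control library, filled circles the HIPK2-shRNA-labelled library, and colours the class. HNRNPL is highest in both, and the longest line is that of MBNL1, from 10.3 to 27.0 TPM.

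Differences between the libraries were small. No expressed member was past 2-fold in CPM, where 6.13% of all expressed genes were. SRRM2 and MBNL2 were past 1.5-fold higher, 2 of 44 members beside 10.6% of expressed genes. None was past 1.5-fold lower, beside 9.96%. By sign alone, 30 of the 44 members were lower in the HIPK2-shRNA-labelled library, where 50% of all expressed genes were. The members are more abundant than most genes. Among all genes at 10 CPM or more in either library, 54.5% were lower, the median log2 ratio was -0.046 and 4.95% were past 2-fold. The 42 members at that level had a median of -0.15. The counting interval of the ratio lay below 1 for 23 members, above 1 for 10 and held 1 for 11. Over the 11760 expressed genes with counts in both libraries, 34.7% had an interval below 1 and 32.5% one above 1, and intervals are narrower for abundant genes such as the members. The median log2 ratio of the members was -0.15 (quartiles -0.37 and 0.013; -0.052 when centred on genes of like length and GC content), and that of all expressed genes 0.0002 (quartiles -0.29 and 0.29). In TPM the medians were -0.088 for the members and 0.077 for all expressed genes.

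**Figure D2:**
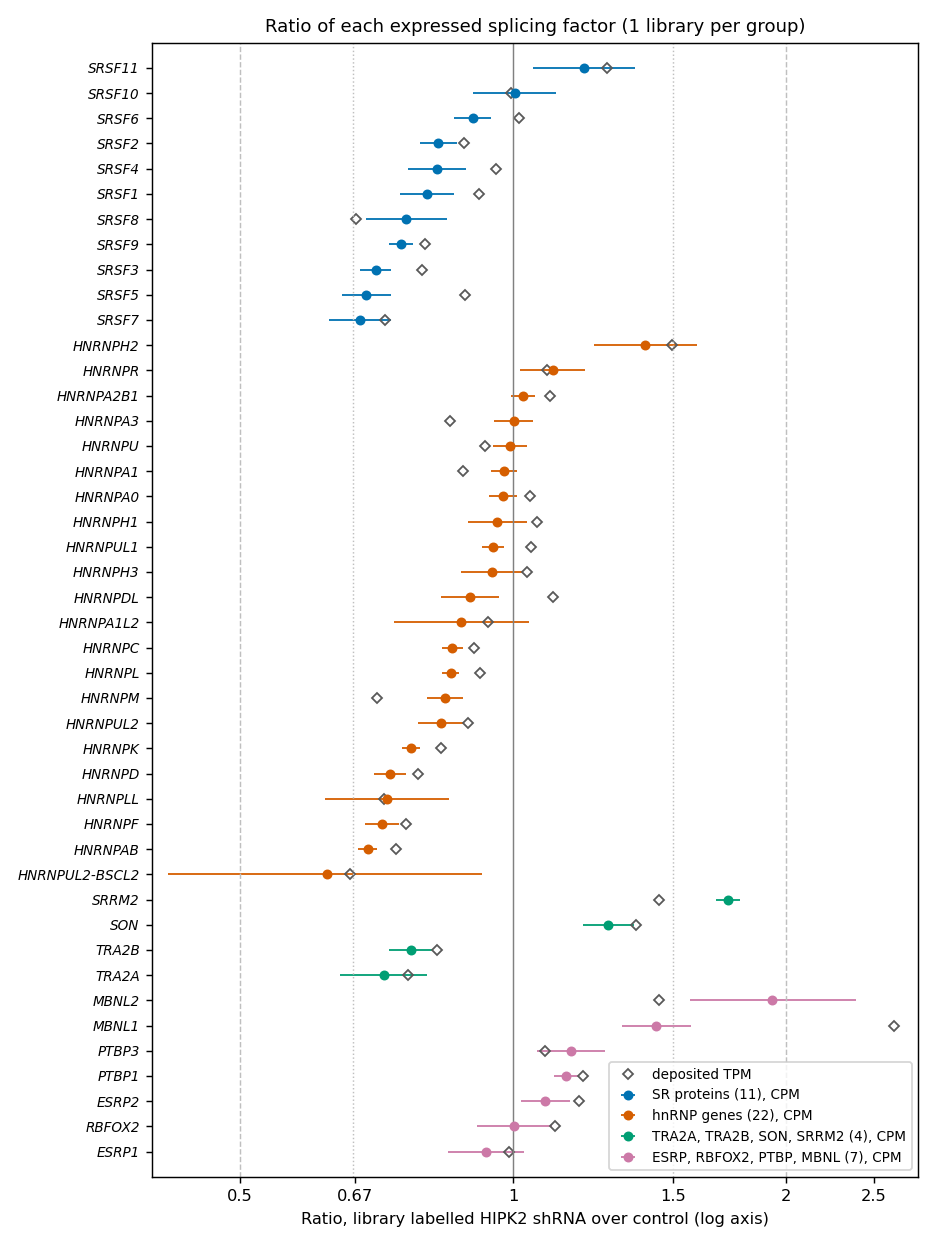
Ratio of each expressed splicing factor in the HIPK2-shRNA-labelled library over the control (log axis); filled points are CPM ratios with 95% counting intervals, open diamonds are ratios of deposited TPM, and dotted and dashed lines mark 1.5-fold and 2-fold. Most SR and HNRNP points lie left of 1, and SRRM2 and MBNL2 lie furthest right in CPM.

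Among the SR proteins, 9 of 11 expressed genes were lower in the HIPK2-shRNA-labelled library, where 50% of all expressed genes were. The counting intervals of all 9 lay below 1, beside 34.7% over all genes. The median log2 ratio of the 11 genes was -0.31 in CPM, -0.17 in TPM and -0.12 in CPM when centred by length and GC content. SRSF7 (ENSG00000115875, chromosome 2, 38743599 to 38751494, minus strand, GRCh38), an SR protein with a zinc knuckle, had 1550 and 1036 counts, or 56.5 and 38.3 CPM, 1.48-fold lower (1.36 to 1.60). Its TPM went from 38.2 to 27.6. SRSF5 went from 89.0 to 61.3 CPM, 1.45-fold lower (1.36 to 1.55), but only from 77.0 to 68.1 TPM. SRSF3, the smallest canonical SR protein and one that links splicing to mRNA export, went from 218 to 153 CPM, 1.42-fold lower (1.36 to 1.48), and from 77.6 to 61.5 TPM. These 3 genes had the lowest CPM ratios of the class, and none reached 1.5-fold by the log2 ratio.

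SRSF9, the SR gene with most reads and the highest TPM of its class, went from 337 to 254 CPM, 1.33-fold lower (1.29 to 1.37). SRSF8, a retrocopy related to SRSF2, went from 32.1 to 24.5 CPM, 1.31-fold lower (1.18 to 1.45), and had the lowest TPM ratio of the class, at 19.0 and 12.7 TPM. SRSF1, the founding SR protein and a regulator of many cancer-associated exons, went from 68.4 to 54.95 CPM, 1.245-fold lower (1.16 to 1.33), and from 35.7 to 32.8 TPM. By the CPM ratio alone, these 3 genes thus differed less than SRSF7, SRSF5 and SRSF3. The counting intervals of SRSF9 and SRSF8 overlapped with those of SRSF7, SRSF5 and SRSF3, whereas that of SRSF1 did not. With 1 library per group this order could not be tested. SRSF4 went from 59.7 to 49.2 CPM and SRSF2, which marks nuclear speckles, from 145 to 120 CPM, 1.21-fold lower each. SRSF6 went from 138 to 124 CPM, 1.11-fold lower (1.06 to 1.16), and stood at 57.8 and 58.6 TPM, so that its direction was not the same in both units.

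The other 2 expressed SR genes were not lower in CPM. SRSF10, which in its dephosphorylated form represses splicing, had 716 and 709 counts, a ratio of 1.004 (0.904 to 1.12). SRSF11 had 439 and 518 counts, or 16.0 and 19.1 CPM, a ratio of 1.20 (1.05 to 1.36), and went from 9.08 to 11.5 TPM. It was the lowest SR gene in TPM in both libraries. SRSF12 had 0 counts in both, which by counting error allows up to 0.109 CPM for the control and 0.111 CPM for the other.

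Of the 22 expressed HNRNP genes, 18 were lower in the HIPK2-shRNA-labelled library, where 50% of all expressed genes were. The counting intervals of 12 of the 18 lay below 1, beside 34.7% over all genes. With total-count scaling, with upper-quartile scaling and in TPM, 14 of the 22 were lower. Of all expressed genes, 44.3%, 43.8% and 42.2% were then lower. The median log2 ratio of the 22 genes was -0.16 in CPM, -0.13 in TPM and -0.052 in CPM when centred. Among the AU-rich and A/B-type binders, HNRNPAB (chromosome 5, 178204507 to 178211163, plus strand) went from 599 to 414 CPM, 1.45-fold lower (1.41 to 1.48), from 16423 and 11198 counts. HNRNPD, also called AUF1, which binds AU-rich elements, went from 205 to 150 CPM, 1.37-fold lower (1.31 to 1.42), and from 257.5 to 202.0 TPM. Its neighbour on chromosome 4 and relative HNRNPDL went from 55.7 to 49.9 CPM, 1.12-fold lower (1.04 to 1.20), while its TPM was higher, at 23.6 and 26.1. The ratio of HNRNPD to HNRNPDL in TPM was 10.9 for the control and 7.74 otherwise.

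The A-type genes, of which HNRNPA1 and HNRNPA2B1 encode proteins that bind UAG-like motifs and can silence exons, differed little in CPM. HNRNPA1 had 7260 and 6997 counts, a ratio of 0.977 (0.945 to 1.01), and HNRNPA2B1 had 8837 and 8937, a ratio of 1.03 (0.995 to 1.06). HNRNPA0 had a ratio of 0.974 (0.939 to 1.01) and HNRNPA3 one of 1.002 (0.953 to 1.05). All 4 intervals held 1. In TPM HNRNPA1 went from 284.0 to 250.4 and HNRNPA3 from 59.5 to 50.7, while HNRNPA2B1 went from 263.3 to 289.2 and HNRNPA0 from 36.2 to 37.8. HNRNPA1L2, a retrocopy of HNRNPA1, had 296 and 256 counts. Of the 100-base windows of its 1372-base GENCODE 29 transcript, 22.4% occur unchanged in HNRNPA1 transcripts. The length implied by its deposited count and FPKM was 3013 and 3017 nucleotides, so the windows may not cover all that was counted. HNRNPA1L2 reads could therefore be exchanged with the parent gene.

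The F/H group, which binds G-runs, was divided. HNRNPF went from 188 to 134 CPM, 1.40-fold lower (1.34 to 1.46), and from 112.6 to 85.8 TPM. HNRNPH2 on the X chromosome had 397 and 548 counts, or 14.5 and 20.3 CPM, a ratio of 1.40 (1.23 to 1.60), the highest of the HNRNP genes. Its TPM went from 9.09 to 13.6, but it shares 362 bases of exon with the read-through gene RPL36A-HNRNPH2 (713 and 743 counts). HNRNPH1 (52.2 and 50.1 CPM) and HNRNPH3 (48.1 and 45.6 CPM) had intervals that held 1. HNRNPH1 was 6.87 times the level of HNRNPH2 in TPM in the control and 4.87 times in the other library.

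HNRNPK, a KH-domain protein that binds C-rich sequence, went from 583 to 450 CPM, 1.30-fold lower (1.27 to 1.33), and from 337.5 to 281.3 TPM. HNRNPL went from 656 to 560 CPM, 1.17-fold lower (1.15 to 1.20), and its paralog HNRNPLL from 14.03 to 10.2 CPM, 1.38-fold lower (1.18 to 1.61). HNRNPC, which binds U-tracts and masks cryptic exons in Alu elements, went from 419 to 359 CPM, 1.17-fold lower (1.14 to 1.20). These 4 genes were lower in both units, but the log2 ratio of HNRNPC was 0.042 when centred by length and GC content. HNRNPM went from 150 to 126 CPM, 1.19-fold lower (1.14 to 1.24), and had the lowest TPM ratio among HNRNP genes at 5 CPM or more, from 133.6 to 94.5 TPM. HNRNPU, the scaffold attachment factor, had 4091 and 4006 counts, a ratio of 0.993 (0.950 to 1.04), and stood at 79.6 and 74.2 TPM.

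HNRNPUL1 had a ratio of 0.950 (0.924 to 0.978) and HNRNPUL2 went from 98.5 to 82.0 CPM, 1.20-fold lower (1.14 to 1.27). HNRNPR, a relative of SYNCRIP, was among the few that were higher, with 1100 and 1200 counts and a ratio of 1.11 (1.02 to 1.20). The lowest ratio of the class, 0.623 (0.416 to 0.923), was that of HNRNPUL2-BSCL2, a read-through transcript with only 70 and 43 counts that shares 59.8% of its exon bases with HNRNPUL2 and 40.2% with BSCL2. HNRNPCL1, HNRNPCL2 and HNRNPCL3 had 0 counts in both libraries, and HNRNPCL4 had 0 and 1. These HNRNPC-like genes also share sequence, with 87.2% of the HNRNPCL4 windows found in HNRNPCL3.

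TRA2A and TRA2B were lower and the large speckle proteins SON and SRRM2 higher in the HIPK2-shRNA-labelled library. TRA2A and TRA2B, relatives of the SR proteins that bind GAA-rich enhancers, went from 28.0 to 20.2 CPM, 1.39-fold lower (1.24 to 1.55), and from 107 to 82.7 CPM, 1.30-fold lower (1.23 to 1.37). TRA2B stayed the more abundant of the pair, at 2.83 and 3.05 times the TPM of TRA2A. SON, which scaffolds nuclear speckles and aids splicing of weak introns, had 1730 and 2174 counts, or 63.1 and 80.3 CPM, a ratio of 1.27 (1.20 to 1.36), and went from 15.3 to 20.9 TPM. SRRM2 (ENSG00000167978, chromosome 16, 2752329 to 2771412, plus strand), the other core protein of speckles and a partner of the catalytic spliceosome, had 6167 and 10498 counts. Its level went from 225 to 388 CPM, a ratio of 1.73 (1.67 to 1.78), and from 115.8 to 167.8 TPM, a ratio of 1.45. SRRM2 was thus past 1.5-fold in CPM and under it in TPM.

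Of the 7 tissue-regulated factors, 6 had higher CPM in the HIPK2-shRNA-labelled library, where 50% of all expressed genes were lower. The counting intervals of 5 of these 6 lay above 1, beside 32.5% over all genes. MBNL1 (ENSG00000152601, chromosome 3, 152268040 to 152465780, plus strand), a muscleblind protein that binds YGCY motifs, had 872 and 1237 counts, or 31.8 and 45.7 CPM, a ratio of 1.44 (1.32 to 1.57). In TPM it went from 10.3 to 27.0, a ratio of 2.63, and it was the 1 member past 2-fold in TPM, where 4.9% of expressed genes were. It was also the 1 member past 1.5-fold in TPM either way, where 17.9% of expressed genes were. Its paralog MBNL2 (chromosome 13, 97221434 to 97394120, plus strand) had 138 and 263 counts, or 5.03 and 9.72 CPM, a ratio of 1.93 (1.57 to 2.39), and went from 2.16 to 3.13 TPM, a ratio of 1.45. Both muscleblind genes were higher in both units, MBNL2 more in CPM and MBNL1 more in TPM.

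PTBP1, which binds pyrimidine tracts and represses neuronal exons, went from 301 to 344 CPM, a ratio of 1.14 (1.11 to 1.18), and from 174.4 to 208.2 TPM. PTBP3 went from 36.0 to 41.8 CPM, a ratio of 1.16 (1.06 to 1.26), and PTBP1 was 20.6 and 22.6 times its level in TPM. When centred by length and GC content, the log2 ratios of PTBP3 and ESRP2 were below 0, at -0.056 and -0.087. The epithelial regulators differed little. ESRP2 went from 70.2 to 76.2 CPM, a ratio of 1.08 (1.02 to 1.15), and ESRP1 had 879 and 809 counts, a ratio of 0.933 (0.847 to 1.03). ESRP2 was 1.92 times as abundant as ESRP1 in TPM in the control and 2.29 times in the other library. RBFOX2, which binds GCAUG, had 892 and 883 counts, a ratio of 1.004 (0.913 to 1.10), and 10.9 and 12.1 TPM.

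The deposited count and FPKM of a gene imply a transcript length, which is an average over the transcripts to which the authors' software gave its reads. Set to nucleotides through 342 genes with 1 GENCODE 29 transcript, it came within 5% of the annotated length for 98.8% of them. The scale was set on these same genes, each with 1 annotated length. Their match therefore does not measure how accurate an average over several transcripts is. The implied length was over 25% longer, or shorter by the same factor, for 5 of 43 members with at least 50 counts in each, beside 9.99% of the 10342 genes so tested. No SR gene was among the 5. MBNL1 went from 4329 to 2538 nucleotides (a ratio of 0.586), the opposite way to MBNL2, which went from 3250 to 4644 (1.43). SRRM2 went from 2712 to 3462 (1.28), HNRNPM from 1568 to 2000 (1.28) and HNRNPA3 from 2697 to 3403 (1.26). MBNL1 and MBNL2 thus moved in opposite directions by this measure, and the other 3 genes toward longer transcripts. MBNL2 had only 138 counts in the control. With a minimum of 200 counts, 4 of 42 members were shifted, beside 6.81% of genes. The length ratio of a gene follows from its ratios in CPM and TPM, so it is no separate result from them.

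The annotated coding transcripts of MBNL1 number 19 and run from 545 to 6458 nucleotides, so the implied average can move without any change in total counts. For SRRM2 the longest coding transcript has 9353 nucleotides and both implied lengths were well below it. SRSF8 (2362 and 2878 nucleotides, a ratio of 1.22) and SRSF5 (1615 and 1349, a ratio of 0.835) had the widest ratios among SR genes. The lengths of 21 of the 43 members were within 2% between the libraries, near the 46.3% of all genes so tested, among them SRSF2, SRSF9, TRA2B, SON, HNRNPAB and HNRNPK. Gene totals do not show which exons were used, and no exon or junction counts were analysed here.

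**Figure D3:**
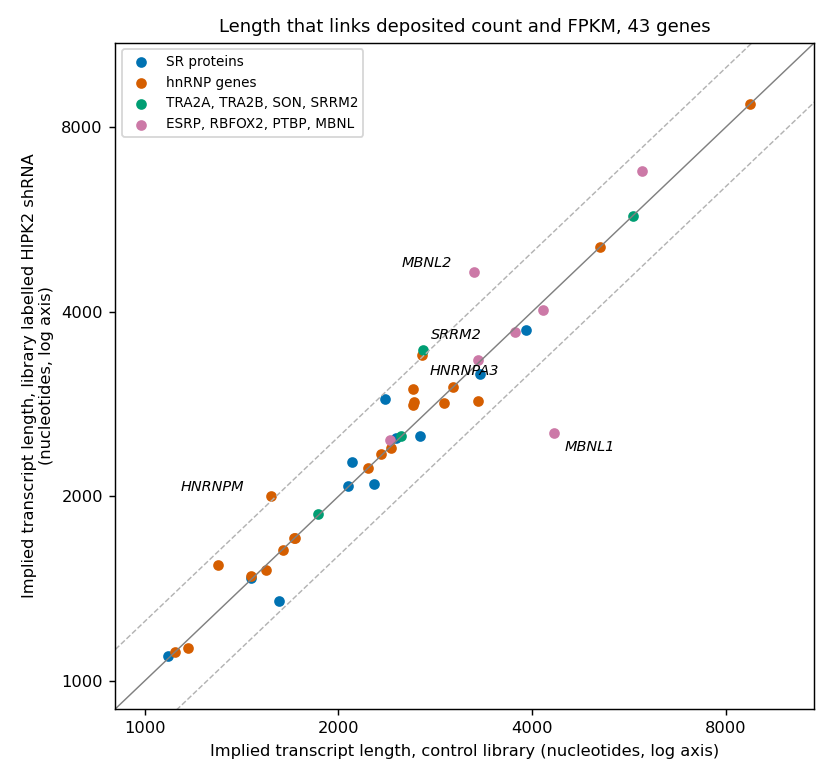
Transcript length implied by deposited count and FPKM in each library (nucleotides, log axes) for 43 splicing factors with at least 50 counts in each; the solid line is equality and the dashed lines 25% longer and shorter by the same factor. MBNL1 lies below the band, and MBNL2, SRRM2, HNRNPM and HNRNPA3 lie above it.

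All 12 SR genes have at least 1 GENCODE 29 transcript marked for nonsense-mediated decay, a trait they do not have to themselves. Such a transcript is also annotated for each of TRA2A, TRA2B, SON and SRRM2, and for 14 of 26 HNRNP genes. It is found for 34 of all 49 members and for 43.4% of all expressed genes. The number of annotated transcripts per gene was not taken into account. A retained-intron transcript is annotated for 9 of the 12 SR genes, 14 of the 26 HNRNP genes and 57.9% of expressed genes. SRSF7 has 6 decay transcripts among 12, SRSF3 has 2 among 8 and HNRNPDL has 4 among 10. These are properties of the annotation, and the level of such transcripts in the libraries was not analysed here.

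Promoter sequences are shown for SRSF3 and HNRNPAB, abundant genes that were lower in the HIPK2-shRNA-labelled library, and for SRRM2, the abundant gene that was highest in ratio. Each is the 250 bases before the RefSeq start on GRCh38.p14, read 5′ to 3′ on the gene's strand. The windows are chr6:36594112-36594361, chr5:178204283-178204532 and chr16:2752388-2752637, all on the plus strand. The SRRM2 span in the deposited tables begins upstream of its window. Capitals mark matches on either strand to the GC box (GGGCGG), the CCAAT box, the TATA box (TATAAA), the core bound by ETS factors (CCGGAAG), the E-box (CACGTG) and the core bound by NRF1 (CGCATGCG). No motif contains another.
SRSF3: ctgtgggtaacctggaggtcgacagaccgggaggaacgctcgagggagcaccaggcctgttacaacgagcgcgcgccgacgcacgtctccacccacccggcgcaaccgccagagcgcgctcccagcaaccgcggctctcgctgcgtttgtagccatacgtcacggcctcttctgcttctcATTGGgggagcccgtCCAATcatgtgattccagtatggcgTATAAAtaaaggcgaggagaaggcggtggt
HNRNPAB: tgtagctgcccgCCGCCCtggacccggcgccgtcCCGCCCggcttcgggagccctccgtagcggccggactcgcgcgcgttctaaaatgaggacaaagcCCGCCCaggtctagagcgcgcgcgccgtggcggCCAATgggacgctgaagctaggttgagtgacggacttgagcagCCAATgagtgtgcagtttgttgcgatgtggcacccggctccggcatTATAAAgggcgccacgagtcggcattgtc
SRRM2: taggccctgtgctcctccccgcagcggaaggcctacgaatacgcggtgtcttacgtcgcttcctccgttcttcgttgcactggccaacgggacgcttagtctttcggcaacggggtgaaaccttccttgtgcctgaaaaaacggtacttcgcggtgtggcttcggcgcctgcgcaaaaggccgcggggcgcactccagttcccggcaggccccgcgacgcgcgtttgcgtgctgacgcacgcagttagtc

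The SRSF3 window holds 2 CCAAT boxes and 1 TATA box, and the HNRNPAB window 3 GC boxes, 2 CCAAT boxes and 1 TATA box. None of the 6 motifs is in the SRRM2 window. RefSeq windows were matched for 38 of the 44 expressed members, 56 windows in all. The CCAAT box was in 25 of the 56 (44.6%, beside 32.9% of the 13479 windows of expressed genes and 32.0% of all 35116), and the TATA box in 6 (10.7%, beside 5.63% and 10.7%). The GC box was in 32 (57.1%, beside 64.7% and 42.6%), the E-box in 8 (14.3%, beside 8.33% and 6.34%) and the ETS core in 5 (8.93%, beside 14.3% and 8.52%). The NRF1 core was in 3 (5.36%, beside 2.92% and 1.73%). A match describes the letters in the window and no binding, and several windows can belong to 1 gene.

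Kinases that phosphorylate the SR tail, and the import factors that carry SR and hnRNP proteins to the nucleus, had a median on the other side of 0 from the SR genes. Of 11 expressed genes of that list, 8 were higher in the HIPK2-shRNA-labelled library, where 50% of all expressed genes were lower. Only 1 passed 1.5-fold, beside 20.6% of expressed genes. The median log2 ratio of the list was 0.32 (0.068 when centred on genes of like length and GC content). PRPF4B, a kinase of the spliceosome, went from 156 to 283 counts, a ratio of 1.84 (1.51 to 2.25). SRPK2 had a ratio of 1.43 (1.20 to 1.71), CLK1 of 1.45 (1.16 to 1.82) and DYRK1B of 1.41 (1.04 to 1.92). CLK1 and DYRK1B were low, at 5.03 and 2.77 CPM in the control. CLK3 and SRPK1 were a little lower, with log2 ratios of -0.19 and -0.17.

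SR-related and exon definition factors had a median log2 ratio of 0.11, with 20 of 28 higher, where 50% of all expressed genes were lower. Past 1.5-fold were 3 of the 28, beside 20.6% of expressed genes. LUC7L2, which helps U1 snRNP choose the 5′ splice site, went from 43.6 to 23.9 CPM, 1.83-fold lower (1.66 to 2.01). SREK1 had a ratio of 1.68 (1.37 to 2.06), RBM25 of 1.58 (1.39 to 1.80) and U2SURP of 1.47 (1.32 to 1.64). In TPM U2SURP was lower (8.23 and 7.34), beside an implied length 1.77 times longer. In the list of hnRNP proteins under other names, 10 of 14 were lower (median -0.15), beside 50% of expressed genes. TARDBP, the gene of TDP-43, went from 247 to 482 counts, a ratio of 1.98 (1.69 to 2.32), and PCBP4 had a ratio of 1.63 (1.37 to 1.96). The cold-inducible RBM3 and CIRBP were 1.52-fold (1.45 to 1.59) and 1.48-fold (1.39 to 1.59) lower, although CIRBP differed little in TPM (76.8 and 72.1).

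Core spliceosome genes had a median log2 ratio of -0.15 (-0.026 in TPM), close to that of the HNRNP genes in CPM. Of 49 genes, 31 were lower, beside 50% of expressed genes, and 5 were past 1.5-fold, beside 20.6%. SF3A3 and PHF5A, both of the U2 snRNP, were 1.68-fold (1.60 to 1.76) and 1.63-fold (1.56 to 1.70) lower, SNRPA1 was 1.55-fold lower (1.43 to 1.68), and PRPF6 had a ratio of 1.52 (1.44 to 1.60). Of 19 other sequence-specific regulators 11 were lower (median -0.045), beside the same 50%. PTBP2, the neuronal PTB protein, had 81 and 25 counts, 3.20-fold lower (2.02 to 5.22), against the direction of PTBP1 and PTBP3, but 0.341 and 0.221 TPM. RBM24 had 119 and 50 counts, TIAL1 was 1.49-fold lower (1.37 to 1.63) and RBM38 had a ratio of 1.71 (1.55 to 1.88).

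**Figure D4:**
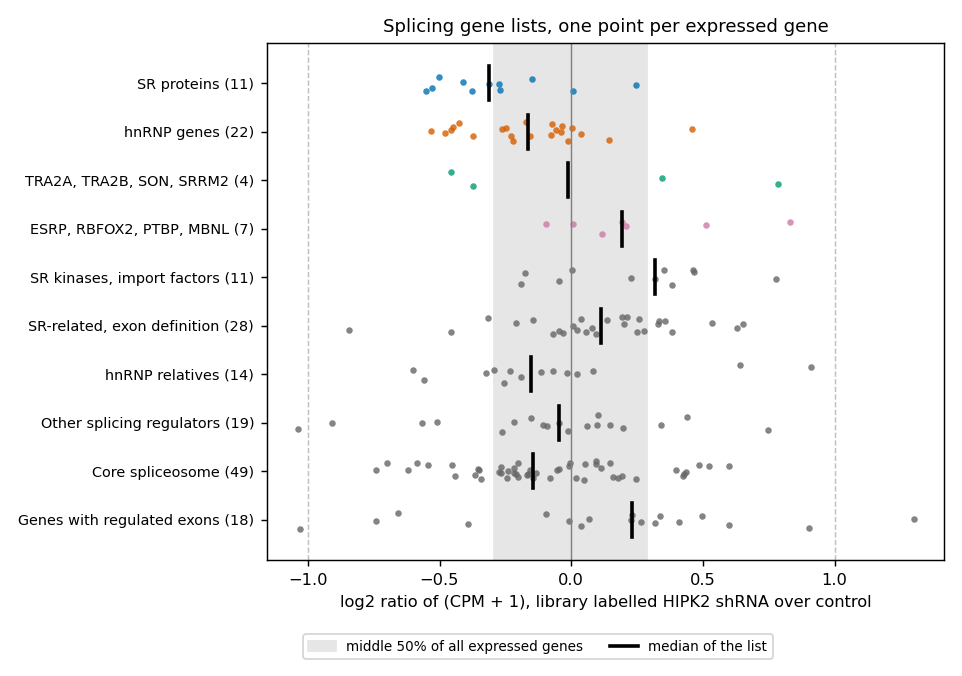
log2 ratio of (CPM + 1) for each expressed gene of the splicing lists, with the number of genes in brackets; black bars are list medians, the grey band is the middle 50% of all expressed genes, shown for single genes, and dashed lines mark 2-fold. The SR median is -0.31 and the kinase and import median 0.32, and these move to -0.12 and 0.068 when centred by length and GC content.

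Genes with exons known to be regulated by these factors were checked for both level and implied length. Their median log2 ratio was 0.23 (0.13 when centred by length and GC content). Of 18 genes, 12 were higher, where 50% of all expressed genes were lower, and 6 were past 1.5-fold either way, beside 20.6%. CD44, whose variable exons respond to ESRP1, went from 703 to 344 CPM, 2.04-fold lower (1.994 to 2.096), yet its implied length was 1646 and 1693 nucleotides. INSR had 8 and 59 counts, a ratio of 7.48 (3.56 to 18.1), MAP3K7 a ratio of 2.02 (1.66 to 2.47) and TPM1 was 1.72-fold lower (1.51 to 1.96). The implied length shifted for 1 of the 17 genes with enough counts. This was ENAH, an actin regulator with an exon set by the ESRP proteins, which went from 13058 to 8176 nucleotides (0.626) at 22.5 and 26.5 CPM. FGFR2, which exchanges its IIIb and IIIc exons under ESRP control, had 273 and 277 counts and 2289 and 2122 nucleotides.

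Log2 ratios in these libraries moved with transcript length over all genes. With expressed genes in 4 bins of equal size by implied length, the median log2 ratio in the shortest bin was -0.14 over all genes and -0.23 over the 11 members there. In the next bin the medians were -0.056 and -0.31 (13 members), in the third 0.032 and -0.042 (16 members), and in the longest 0.17 and 0.085 (4 members). The members' median was below that of all genes in each of the 4 length bins, the longest with only 4 members. With 4 bins by GC content, it was above that of all genes in the highest bin (0.15 over 2 members, and 0.092). It was below in the other GC bins. SON, with 5750 nucleotides in the control, is in the longest bin, whereas SRSF9 (1088) and HNRNPD (1114) are in the shortest. When log2 ratios were centred on genes of like length and GC content, the SR median was -0.12 and the HNRNP median -0.052. The part of length in the members' ratios was not tested further.

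Of the 49 members, 15 share exon bases with another counted gene. SRSF9 shares 46.2% of its exon bases with GATC on the opposite strand (1817 and 1550 counts) and SRSF2 36.7% with MFSD11 (1305 and 868 counts). SRSF1 shares 56.6% with AC015813.2, which had only 17 and 5 counts. The sources used here do not say whether counting used strand, so reads of such pairs may have been exchanged. Without the 15 genes, 6 of 8 expressed SR genes (median -0.33) and 11 of 13 HNRNP genes (median -0.17) were lower. Of all expressed genes, 50% were lower.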

How the data were processed

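Libraries of Cal-27 total RNA were sequenced as paired-end reads of 150 bp, per the labels' protocols. Reads were aligned with TopHat2 2.1.1 on GRCh38 (hg38) after FastQC, per the submitters' processing notes. The sources used here do not give the counting tool, its annotation or whether it used strand. The deposited tables give, per the file headers, a count, a TPM and an FPKM per gene. The counts deposited are whole numbers and were not normalized, the deposited TPM was scaled for length by the authors, and the deposited FPKM differs from TPM by 1 factor per library.

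Counts were scaled to CPM with TMM factors (edgeR 4.0.16, R 4.3.3), 0.977 for the control and 1.02 for its counterpart. Past 2-fold and past 1.5-fold are rules of size on the log2 ratio of (CPM + 1), or of (TPM + 1). No model was fitted, as groups of 1 library give no spread. Intervals came from scipy 1.17.1 and, like the limits for 0 counts (3 counts), cover counting error only, as reads are not independent molecules. A count is worth 0.0365 and 0.037 CPM. The implied length is the count over FPKM and total count, set to nucleotides by genes with 1 transcript and at least 200 counts in each library. Scripts were tested on simulated data. All 49 member IDs matched GENCODE 29.

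The members and lists were chosen with earlier results of these data known. Values were given for every member, and for up to 4 expressed genes of each other list with the largest absolute log2 ratio, plus genes of the regulated-exon list with a shifted length. CLK3, SRPK1 and FGFR2 were added after values were seen. Alternatives changed the scaling, pseudocount, filter, unit, length minimum and shift size; centring by length and GC content and leaving out members that share exons were added after the data were seen.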

Additional observations from a re-analysis of the deposited data

How the results depend on the processing

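Neither library could be dropped for want of replicates. No paired analysis was possible because there was only 1 control and 1 HIPK2-shRNA-labelled library. A median was taken to have moved when it changed by 0.1 or more, and a count when it changed by over 1.5 times. By these limits 145 group values stayed the same, 21 moved and 1 reversed. The log2 ratio of HIPK2 (0.85) became -0.49 in TPM, which reverses it. The implied length of HIPK2 was 3443 nucleotides in the control and 13824 in the HIPK2-shRNA-labelled library, a ratio of 4.01, and TPM is scaled for length. Members past 2-fold became 1 in TPM (MBNL1). Members past 1.5-fold higher became 1 in TPM, with a pseudocount of 5 CPM, with a filter at 10 CPM and without members that share exons. Members past 1.5-fold lower became 1 with a pseudocount of 0.1 CPM and when centred by length and GC content, in both cases HNRNPUL2-BSCL2. The SR median was -0.17 in TPM and -0.12 when centred, where the HNRNP median was -0.052 and that of the 7 tissue-regulated factors 0.072. Without genes that share exons, 11 of 13 HNRNP genes were lower, and the median of TRA2A and TRA2B, which alone remain of their class, was -0.41. Among the other lists, the kinase and import median was 0.18 with a pseudocount of 5 CPM, 0.11 with a filter at 10 CPM and 0.068 when centred. The core spliceosome median was -0.026 in TPM, the regulated-exon median 0.36 in TPM and 0.13 when centred, and that of the other regulators 0.077 when centred. Shifted implied lengths became 1 (MBNL1) at a shift past 1.5. Apart from fewer genes under a filter or without genes sharing exons, the cause was not tested.

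Scaling by total count or by upper quartile raised the median of all expressed genes to 0.061 and 0.065, and 26 members instead of 30 were then lower; with RLE factors 33 were. Under these 3 scalings the sign changed only for members within 0.058 of 0 on the log2 scale. In TPM it changed for 8 members (HNRNPA0, HNRNPA3, HNRNPDL, HNRNPH1, HNRNPH3, HNRNPUL1, SRSF6 and SRSF10) and when centred for 8 (ESRP1, ESRP2, HNRNPA1, HNRNPA3, HNRNPC, HNRNPH1, HNRNPH3 and PTBP3). Counting error is widest for HNRNPUL2-BSCL2, with 70 and 43 counts. The CPM ratio of a single member was taken to have moved when it left its counting interval. For TPM ratios the limit for medians was used. Of the single-member values 259 stayed the same and 93 moved, so the intervals do not cover the choice of processing. With total-count scaling, HNRNPL, HNRNPAB, HNRNPK, SRSF9 and SRRM2 were among those that moved.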
